A study of Mus musculus with 6 samples.

Results

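The genes described here encode 8 transcription factors that direct myeloid fate in bone marrow progenitors. They are the C/EBP family members Cebpa, Cebpb, Cebpd, Cebpe and Cebpg, the ETS factor gene Spi1, which encodes PU.1, the zinc finger repressor gene Gfi1 and the Krüppel-like factor gene Klf4. They were picked by gene symbol, by a rule that used no measured value although earlier results of these data were known, and all 8 were found among the 24421 genes of the deposited table and passed the low-count filter that left 13411 genes for testing. RNA came from Lin-CD117+ cells, marrow cells sorted for KIT (CD117) and against markers of mature lineages, which include stem cells and progenitors. The mice were CByB6F1 females, 2 to 5 months old. In the RUX group (pools 4, 5 and 6) they had been given ruxolitinib, which blocks the kinases JAK1 and JAK2, and in the untreated group (pools 1, 2 and 3) they had not. Each pool joined sorted cells of 2 to 3 mice of its group, so a value is a mean over animals. The sources used here give neither the dose nor the length of treatment. Read pairs counted per pool numbered 46027491 to 48747137 in the RUX pools and 27354768 to 38691826 in the untreated pools.

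C/EBP proteins bind DNA as dimers through a basic region and a leucine zipper. PU.1 opens myeloid enhancers that C/EBPα then shares, and together they switch on the genes for myeloid growth factor receptors and granule proteins. GFI1 represses monocyte and stem cell genes and favours neutrophils, whereas high PU.1 together with IRF8 and KLF4 favours monocytes. The receptors for G-CSF, GM-CSF and IL-6 signal through JAK kinases, and this links the family to the drug. The question set by the design was how ruxolitinib alters the transcriptome of these progenitors, and here it was asked of the factors that set myeloid fate.

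The sequences upstream of Cebpa, of Gfi1 and of the myeloperoxidase gene Mpo are shown because Cebpa was the regulator nearest to Gfi1 in its pattern over the pools, and Mpo was the gene nearest to Gfi1 among all genes compared, as described further on. They come from the RefSeq promoter table of GRCm38.p6, run 5′ to 3′ on the strand of the gene and leave out bases that lie in annotated exons of the gene. Capitals mark matches to a C/EBP core (TTNNGNAA) or a PU.1 core (GAGGAA), searched on both strands with a GFI1 core (AATCAC) and a STAT site (TTCNNNGAA).
Cebpa, chr7:35119043-35119292, plus strand: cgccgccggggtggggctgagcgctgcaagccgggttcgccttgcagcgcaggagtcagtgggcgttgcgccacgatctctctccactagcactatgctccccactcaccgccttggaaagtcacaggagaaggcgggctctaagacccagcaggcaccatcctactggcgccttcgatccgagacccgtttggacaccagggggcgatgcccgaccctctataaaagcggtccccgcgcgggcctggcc
Gfi1, chr5:107725806-107725954, minus strand: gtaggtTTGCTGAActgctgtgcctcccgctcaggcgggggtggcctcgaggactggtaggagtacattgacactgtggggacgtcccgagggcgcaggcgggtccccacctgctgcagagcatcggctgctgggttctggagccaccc
Mpo, chr11:87793534-87793580, plus strand: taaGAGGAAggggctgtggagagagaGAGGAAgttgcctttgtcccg
The Gfi1 stretch, from 1 of its 2 entries, held a C/EBP core on the other strand. It appears as TTGCTGAA in the strand shown and begins 143 bases before the start site of that entry. Bases directly upstream of this stretch lie in an annotated exon of Gfi1. The other Gfi1 entry held none of the 4 motifs. The Mpo stretch held PU.1 cores that begin 247 and 224 bases before the start site. The Cebpa stretch held none of the 4 motifs. Of 32851 RefSeq windows of 250 bases before a start site, 36.9% held the C/EBP core, 23.3% the PU.1 core, 9.14% the GFI1 core and 7.02% the STAT site, so such matches are common. Of the 8 regulators, 5 had a promoter in that table, in 6 entries. The only other match in them was a GFI1 core before Cebpg. A match is a string of letters and not a bound site, and the absence of one says only that these letters are not in the window.

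The sorted fraction expressed all 8 regulators, at very different levels. Per kilobase of exon (RPKM, read pairs scaled to exon length and library size), Spi1 was the highest at a mean of 85.3 over the 6 pools (66.1 to 115), above 90.7% of the tested genes. Cebpb followed at 20.8 RPKM (13.1 to 29.4), Cebpg at 16.8 (13.7 to 18.8), Cebpe at 13.7 (6.00 to 24.9), Cebpd at 12.8 (8.31 to 17.1) and Cebpa at 11.9 (7.56 to 15.3). Gfi1 stood lower, at 6.31 RPKM (3.25 to 8.83), and Klf4 lowest, at 2.11 RPKM (1.23 to 3.57), above 28.9% of tested genes. Only Spi1 was set apart from its neighbour in this order by ranges that did not overlap. The ranges of Cebpb, Cebpg, Cebpe, Cebpd and Cebpa overlapped from each to the next, although Cebpa lay above Gfi1, and Gfi1 above Klf4, in 6 of 6 pools. By group, Spi1 averaged 85.6 ± 17.5 RPKM in RUX pools and 84.9 ± 26.2 RPKM in untreated pools (SD, n = 3 each).

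No regulator of the 8 reached the threshold in the test of RUX against untreated pools. By edgeR's quasi-likelihood test with Benjamini-Hochberg adjustment over the 13411 genes, 0 regulators had an adjusted p under 0.05, and 0 of all genes did (0%). At an unadjusted p under 0.05 there were 0 of the 8, against 254 of all tested genes (1.89%). DESeq2 and limma-voom without quality weights also called 0 of the 8 at either threshold. All 8 had a fold change above 1, with folds of 1.01 to 1.22 and a median log2 fold change of 0.18, against a median of −0.004 over all tested genes, of which 49.2% were positive and 50.8% negative. In limma-voom 7 of the 8 were positive, and Klf4 was at −0.012. For 7 of the 8, both ends of the 95% interval were less than 2-fold from no change, as for 80.9% of tested genes. The exception was Cebpe, with an interval of 0.611 to 2.01. Cells were sequenced in bulk, so more cells of a type and more RNA per cell cannot be told apart.

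**Figure D1:**
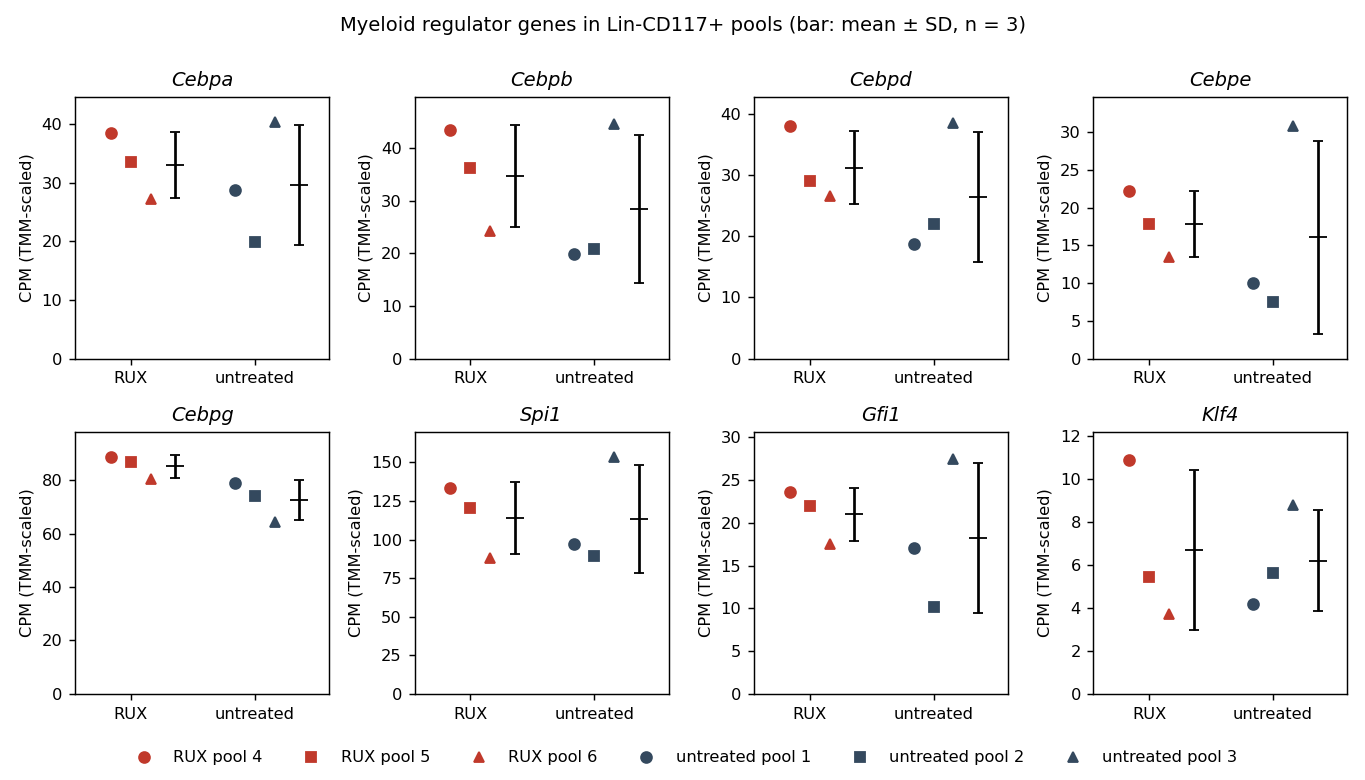
CPM (read pairs scaled to TMM-adjusted library size) of the 8 regulators in each pool, RUX at left and untreated at right, with the mean ± SD of 3 pools as a bar. Untreated pool 3 was the highest pool for 6 genes, and Cebpg was the only gene whose groups did not overlap.

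Cebpa encodes the founding factor of the granulocyte and monocyte progenitor and lies in 1 exon block on chromosome 7 (35119293 to 35121931, mm10). It measured 38.5, 33.5 and 27.2 CPM in RUX pools 4, 5 and 6, against 28.8, 19.9 and 40.4 CPM in untreated pools 1, 2 and 3. The RUX values all lay inside the untreated range. The fold was 1.11 (95% interval 0.795 to 1.56), a log2 fold change of 0.16 ± 0.23 (SE), far from the threshold (adjusted p = 1, edgeR).

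Cebpe, the late-acting member needed for secondary granules of neutrophils and eosinophils (chromosome 14, 54710363 to 54712174), varied most among the untreated pools. It measured 22.2, 17.9 and 13.4 CPM in RUX pools 4, 5 and 6, against 10.04, 7.42 and 30.8 CPM in untreated pools 1, 2 and 3. The highest value was 1.66 times the lowest among RUX pools and 4.14 times the lowest among untreated pools. Its log2 fold change was 0.15 ± 0.40 (SE), far from the threshold (adjusted p = 1, edgeR).

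Cebpb and Cebpd are the members that inflammatory cytokines induce, and C/EBPβ sustains granulocyte output during infection. Cebpb (chromosome 2, 167688915 to 167690432) measured 43.4, 36.1 and 24.3 CPM in RUX pools 4, 5 and 6, against 19.9, 20.8 and 44.6 CPM in untreated pools 1, 2 and 3. Cebpd (chromosome 16, 15887286 to 15889545) measured 38.0, 29.1 and 26.6 CPM in those RUX pools, against 18.8, 22.1 and 38.6 CPM in the untreated pools. For both genes untreated pools 1 and 2 lay below every RUX pool, and untreated pool 3 above every one. Log2 fold changes were 0.28 ± 0.29 for Cebpb and 0.24 ± 0.24 for Cebpd (SE; adjusted p = 1 for each, edgeR). An exon of Spidr lies on the opposite strand over 322 of the 2260 exon bases of Cebpd, and the GENCODE annotation puts an exon of Tmem189 over 312 of the 1518 bases of Cebpb in the same way. Counting used no strand option, so strand did not separate reads of these partners there. The annotation used for counting holds the Spidr exon over Cebpd but no exon of another gene over Cebpb. How reads of the shared bases were assigned was not examined. Overlaps of 51 bases or fewer were found for Cebpa, Cebpg and Gfi1.

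Cebpg encodes a member without an activation domain of its own, which acts as a dimer partner, among others of ATF4, and its gene lies beside Cebpa on chromosome 7 (35046422 to 35056566). It was the steadiest of the 8 and the only one whose groups did not overlap. It measured 88.6, 86.6 and 80.4 CPM in RUX pools 4, 5 and 6, against 78.8, 74.2 and 64.3 CPM in untreated pools 1, 2 and 3. Its fold was 1.18 (95% interval 0.954 to 1.45), with an unadjusted p of 0.119 and an adjusted p of 1 in edgeR. Across all tested genes the RUX pools lay wholly above the untreated pools in 2.99% and apart in either direction in 6.24%, so 1 gene of 8 is little to read from. Here untreated pool 3 was the lowest pool of the 6, the reverse of its place for Cebpa, Cebpb, Cebpd, Cebpe, Spi1 and Gfi1.

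Spi1 (chromosome 2, 91096797 to 91115756), whose dose steers progenitors between monocyte, granulocyte and lymphoid fates, measured 133, 121 and 88.1 CPM in RUX pools 4, 5 and 6, against 97.0, 89.3 and 153 CPM in untreated pools 1, 2 and 3. The means were 114 ± 23.4 CPM in RUX and 113 ± 35.0 CPM in untreated pools (SD, n = 3 each). Its log2 fold change was 0.01 ± 0.21 (SE), far from the threshold (adjusted p = 1, edgeR), with a fold interval of 0.736 to 1.38.

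Gfi1, the repressor that favours neutrophils over monocytes (chromosome 5, 107716655 to 107725805), measured 23.6, 21.9 and 17.5 CPM in RUX pools 4, 5 and 6, against 17.1, 10.1 and 27.4 CPM in untreated pools 1, 2 and 3. All RUX values lay inside the untreated range, and the log2 fold change was 0.21 ± 0.28 (SE), far from the threshold (adjusted p = 1, edgeR). Klf4, which supports monocyte differentiation (chromosome 4, 55527137 to 55532475), was counted least, at 188 to 469 read pairs in RUX and 117 to 319 in untreated pools. It measured 10.9, 5.45 and 3.73 CPM in RUX pools 4, 5 and 6, against 4.18, 5.61 and 8.76 CPM in untreated pools 1, 2 and 3. It was the 1 regulator that spread more among RUX pools, 2.91 times from lowest to highest, than among untreated pools, 2.10 times. Its log2 fold change was 0.11 ± 0.36 (SE), far from the threshold (adjusted p = 1, edgeR).

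The same pools stood high or low for most of the regulators. Untreated pool 3 was the highest of the 6 pools for 6 of the 8, against 19.6% of tested genes. The 3 RUX pools lay wholly inside the untreated range for 5 of the 8, against 27.2% of tested genes. Among the RUX pools, pool 4 was the highest and pool 6 the lowest for 8 of 8, and pools 4, 5 and 6 stood in that order of level in 26.9% of tested genes. Untreated pool 3 and RUX pool 4 also stood apart from the other 4 pools on the first principal component of all tested genes (24.1 and 19.4 against −16.5 to −3.04). In these pools the summed CPM of 9 eosinophil markers was 242 in RUX pool 4 and 250 in untreated pool 3, and 50.5 to 104 in the other 4 pools. Most of that sum was Prg2, the major basic protein gene, at 207 CPM in RUX pool 4 and 214 CPM in untreated pool 3. Prg3, Epx, Ear1 and Ear6 were also highest in these pools, at lower levels. In contrast, Ear2 was highest in untreated pool 2, at 0.435 CPM, and Siglecf stood at 10.4 to 14.0 CPM in all 6 pools. Kit, the receptor gene used in the sort, was lowest in RUX pool 4 (295 CPM) and untreated pool 3 (196 CPM), with 409 to 471 CPM in the other 4 pools. The part of these differences in the values of the regulators was not tested.

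**Figure D2:**
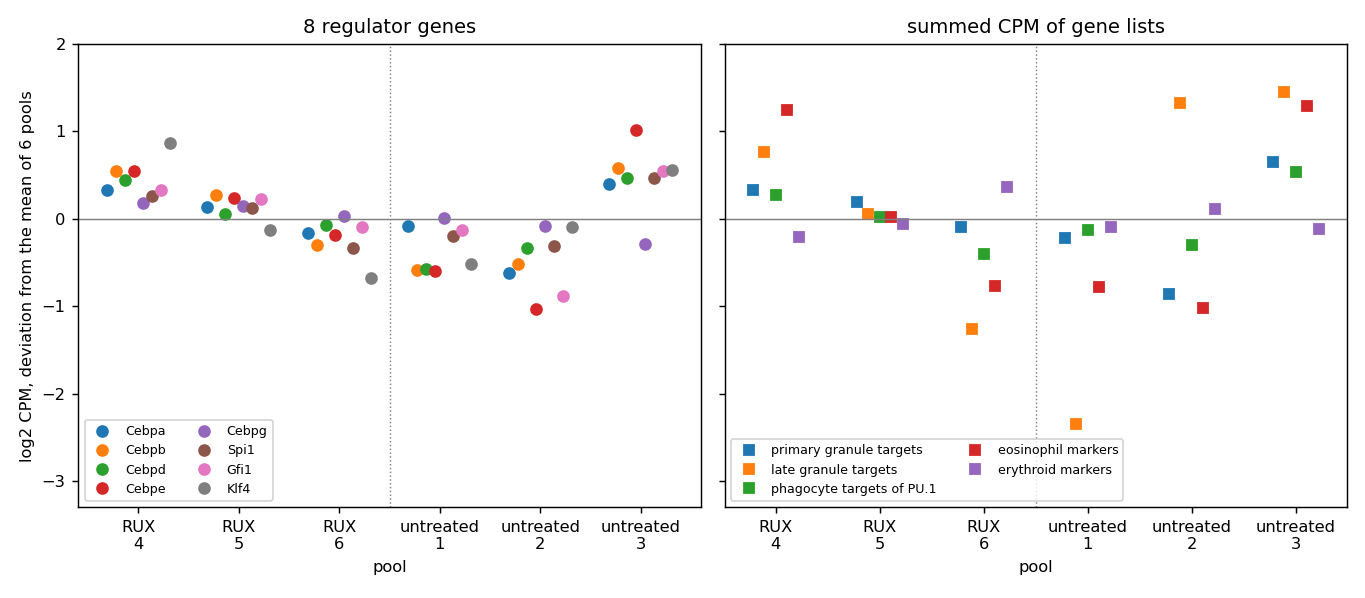
Log2 CPM of each regulator (left) and of the summed CPM of 5 gene lists (right), as the deviation from the mean of the 6 pools, with RUX pools left of the dotted line. In untreated pool 2 Cebpa, Cebpe, Gfi1 and the sum of primary granule genes were at their lowest of the 6 pools, while late granule genes lay high. Klf4 was not low there.

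Because untreated pool 3 carried so much of the spread, the fit was repeated without it. All 8 log2 fold changes were then positive, from 0.16 for Cebpg to 1.03 for Cebpe, with values of 0.77 for Cebpb, 0.63 for Gfi1, 0.61 for Cebpd and 0.44 for Cebpa. Of the 8, Cebpe, Cebpd, Cebpb, Gfi1 and Cebpa (5 genes) had an unadjusted edgeR p under 0.05, against 3.96% of tested genes in that fit. Of the 8, 0 passed the edgeR adjusted threshold, with a smallest adjusted p of 0.822. That pool was left out after it was seen to be the highest for most of these genes, so larger folds follow from the choice, and their count is a description only. In 5 of the 8 genes untreated pools 1 and 2 both lay below every RUX pool, as in 9.35% of tested genes. With RUX pool 4 left out as well, the log2 fold changes of Cebpe, Cebpd, Cebpb and Gfi1 were 0.45 to 0.85. Those of Cebpa, Spi1, Cebpg and Klf4 were 0.32, 0.17, 0.13 and −0.094 in that fit. Without untreated pool 2, in contrast, Cebpa, Cebpe, Spi1 and Gfi1 turned negative, at −0.06, −0.19, −0.13 and −0.08. The direction of 5 of the 8 (Cebpa, Cebpe, Spi1, Gfi1 and Klf4) therefore rested on single pools.

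**Figure D3:**
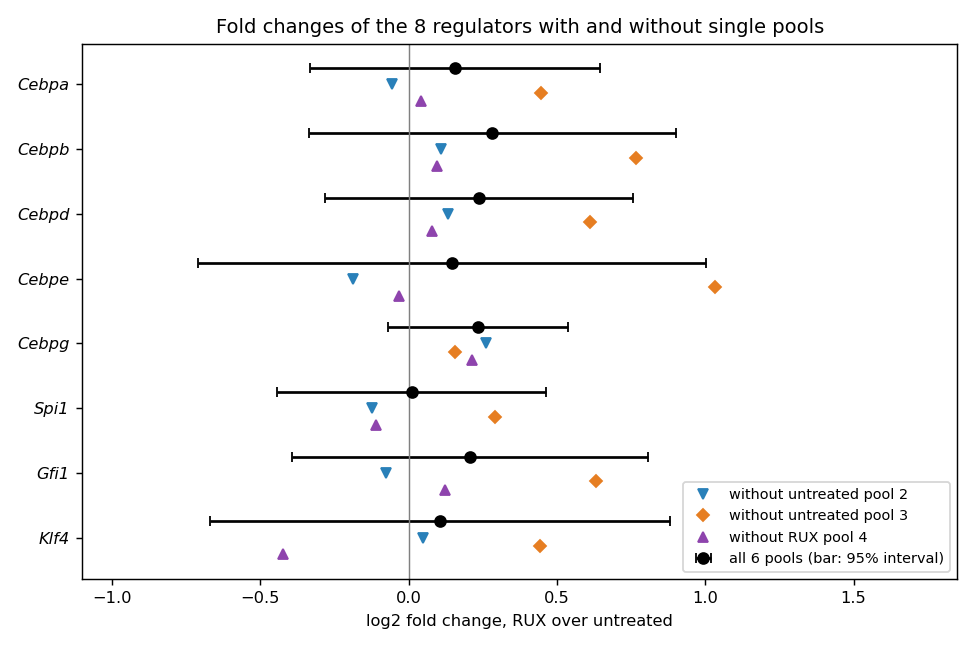
Log2 fold change (RUX over untreated) of each regulator in all 6 pools, with its 95% interval, and in fits without untreated pool 2, untreated pool 3 or RUX pool 4. Without untreated pool 3 the value for Cebpe was 1.03, and without untreated pool 2 it was −0.19.

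Genes whose pattern over the 6 pools was most like that of each regulator were found as the smallest root mean square difference of log2 CPM deviations among 9530 genes with a mean of at least 5 CPM. For Gfi1 the nearest was Mpo, which encodes the main enzyme of primary granules, at a difference of 0.087 log2 units, where the deviation of Gfi1 itself was 0.462. Mpo measured 6973, 7182 and 6035 CPM in RUX pools 4, 5 and 6, against 5487, 3630 and 9240 CPM in untreated pools 1, 2 and 3, the same order of the untreated pools as in Gfi1. The second nearest to Gfi1 was the glypican gene Gpc1 (0.090). For Cebpe the nearest were Trim45 (0.114) and Ly6c2 (0.122), the second a surface antigen gene of monocytes and their progenitors. For Cebpa they were Tagap (0.043) and the lactate dehydrogenase gene Ldhb (0.060), for Spi1 Tmem50b (0.039) and the myosin light chain gene Myl12b (0.058). For Cebpb they were the chromatin remodeller gene Chd7 (0.128) and the histidine decarboxylase gene Hdc (0.139), and for Cebpd Coprs (0.103) and the platelet factor gene Pf4 (0.124). For Cebpg they were Tspan14 (0.037) and the glucose transporter gene Slc2a1 (0.051), and for Klf4 Lst1 (0.108) and the signalling adaptor gene Hcst (0.156). Among the regulators themselves the nearest pair was Cebpa and Gfi1 (0.137), then Cebpa and Spi1 (0.152) and Cebpb and Cebpd (0.160), and the farthest was Cebpe and Cebpg (0.727). Hdc, Ly6c2 and Pf4 are also on the lists of basophil and mast cell, monocyte and megakaryocyte markers. Over 6 pools and 9530 genes such nearness is a description of these libraries.

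Of the genes that these factors act on, primary granule genes lay with most of the regulators in the pools, and late granule genes departed from them in untreated pool 2. Of 9 primary granule genes, 8 had positive log2 fold changes and 0 passed at adjusted or unadjusted thresholds, with a median of 0.14, and untreated pool 3 was the highest pool for 8. This median rested on single untreated pools, at −0.12 without pool 2 and 0.68 without pool 3. Elane, the neutrophil elastase gene and a target of C/EBPα, PU.1 and GFI1, averaged 1553 ± 363 CPM in RUX and 1272 ± 1022 CPM in untreated pools (SD, n = 3 each). On the log2 scale the proteinase 3 gene Prtn3 differed by 0.35 ± 0.35 and the serpin gene Serpinb1a by −0.20 ± 0.22 (SE). Of 13 late granule genes measured, 13 had negative values and 0 passed, with a median of −0.87. For 11 of these 13, untreated pool 3 was again the highest pool. The median was −1.41 to −0.48 with 1 pool left out and −0.42 in limma-voom, and it turned to 0.26 in limma-voom with quality weights. They included the collagenase genes Mmp8 (−1.02 ± 0.49) and Mmp9 (−1.07 ± 0.64) and the surface antigen gene Cd177 (−0.93 ± 0.58, SE). The summed CPM of primary granule genes was 11680, 10650 and 8708 in RUX pools 4, 5 and 6, against 8012, 5146 and 14660 in untreated pools 1, 2 and 3. That of late granule genes was 1587, 971 and 388 in the RUX pools, against 184, 2331 and 2552 in the untreated pools. Untreated pool 2 was therefore the lowest of the 6 for primary granule genes, Cebpe and Gfi1, and the second highest for late granule genes. Late granule genes mark neutrophils past the stage that carries KIT, and their part in the fold changes was not tested.

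Receptor and phagocyte genes showed no shift that passed the test. Of 5 growth factor receptor genes under C/EBP and PU.1, 2 had positive and 3 negative log2 fold changes (0 passed, median −0.02). The M-CSF receptor gene Csf1r measured 37.7 ± 5.79 CPM in RUX and 43.8 ± 7.48 CPM in untreated pools. Log2 differences were −0.24 ± 0.27 for Il6ra, the IL-6 receptor gene, and 0.17 ± 0.21 for Csf2rb, which encodes the chain shared by the receptors for GM-CSF and related cytokines (SE). Of 10 tested phagocyte genes under PU.1, 1 was positive and 9 negative (0 passed, median −0.14), and 9 of them were highest in untreated pool 3. The median turned positive without untreated pool 3 (0.17) and without RUX pool 6 (0.051). The integrin genes Itgam and Itgb2 had log2 fold changes of −0.29 ± 0.19 and −0.20 ± 0.16, and Tlr4, the endotoxin receptor gene, one of −0.23 ± 0.21 (SE).

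Among partners and opponents of the 8 factors, Trib1 and Irf8 had the smallest p. Of 15 partners, corepressors and modulators, 6 were positive and 9 negative (median −0.05), and 1 was lower at an unadjusted p under 0.05, against 1.04% of tested genes. This was Trib1, whose product directs C/EBPα to degradation. It measured 3.75, 1.93 and 1.90 CPM in RUX pools 4, 5 and 6, against 3.64, 3.58 and 5.16 CPM in untreated pools 1, 2 and 3, or −0.71 ± 0.32 on the log2 scale (SE; unadjusted p = 0.0427, adjusted p = 1 in edgeR). The groups overlapped through RUX pool 4. The acetyltransferase genes Ep300 and Crebbp, coactivators of C/EBP factors, had values of 0.35 ± 0.18 and 0.28 ± 0.15 (SE). Of 11 monocyte and dendritic cell regulators, 6 were positive and 5 negative (median 0.09), and 1 was lower at an unadjusted p under 0.05. This was Irf8, the partner of PU.1 in monocyte and dendritic fates, which measured 217, 236 and 173 CPM in RUX pools 4, 5 and 6, against 297, 211 and 334 CPM in untreated pools 1, 2 and 3. Its log2 difference was −0.43 ± 0.18 (SE; unadjusted p = 0.0355, adjusted p = 1 in edgeR), and the groups overlapped, since RUX pools 4 and 5 lay above untreated pool 2. The repressor gene Zeb2 lay lower in RUX pools without overlap, at 75.5 ± 6.99 CPM in RUX and 90.1 ± 7.38 CPM in untreated pools, and 3.25% of tested genes did so. The nuclear receptor gene Nr4a1 averaged 5.27 ± 3.09 CPM in RUX and 9.07 ± 4.65 CPM in untreated pools (SD, n = 3 each).

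The remaining lists held 0 genes past either threshold. Of 11 close relatives, 6 were positive and 5 negative (median 0.04), with Klf2 at 0.36 ± 0.29, the erythroid factor gene Klf1 at 0.23 ± 0.19 and Klf13 at 0.19 ± 0.17 on the log2 scale (SE). Of 14 regulators of other fates, 8 were positive and 6 negative (median 0.004), with the stem and erythroid factor gene Tal1 at 0.23 ± 0.15 and Gata2, a factor of stem and mast cells, at 0.14 ± 0.18 (SE). Of 8 genes that GFI1 is reported to repress, 5 were positive and 3 negative (median 0.11). Csf1, the M-CSF gene, stood at 0.38 ± 0.31 (log2 fold change, SE). The lists share some genes, Klf1 and Csf1r among them.

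Ratios of read pairs between factors that act against each other, or in turn, were tested over the pools by two-sided exact permutation, which cannot give a p below 0.1 with 3 against 3 pools, and adjusted over 5 ratios. Gfi1 over Irf8, which sets a neutrophil against a monocyte factor, was the ratio with the largest difference. It was 0.109, 0.0930 and 0.101 in RUX pools 4, 5 and 6, against 0.0575, 0.0479 and 0.0821 in untreated pools 1, 2 and 3, without overlap. The difference of mean log2 ratios was 0.73, with an exact p of 0.1 and an adjusted exact permutation p of 0.5, and it was 0.55 to 0.94 with 1 pool left out. Spi1 over Gata1, the myeloid against the erythroid factor, was 0.868, 0.699 and 0.420 in RUX pools, against 0.599, 0.482 and 0.943 in untreated pools, a log2 difference of −0.03 (exact p = 1). The erythroid factor gene Gata1 itself averaged 179 ± 28.5 CPM in RUX and 170 ± 13.1 CPM in untreated pools (SD, n = 3 each). Cebpa over Spi1 stayed within 0.278 to 0.309 in RUX pools and 0.224 to 0.296 in untreated pools, a log2 difference of 0.17 (exact p = 0.3, adjusted p = 0.75). Gfi1 over its erythroid relative Gfi1b was 0.0970 to 0.218 in RUX pools and 0.0715 to 0.179 in untreated pools (log2 difference 0.39, exact p = 0.6, adjusted p = 0.875). Cebpe over Cebpa, late against early in granulocyte maturation, was 0.492 to 0.577 in RUX pools and 0.350 to 0.762 in untreated pools (log2 difference 0.20, exact p = 0.7, adjusted p = 0.875).

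**Figure D4:**
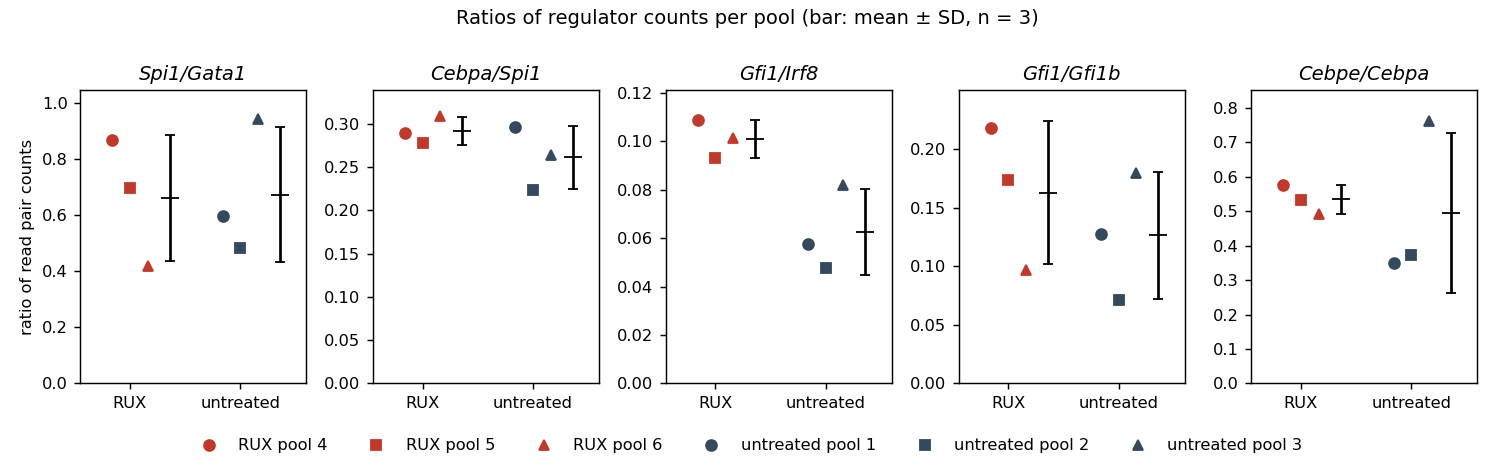
Ratios of read pair counts of 5 gene pairs in each pool, RUX at left and untreated at right, with the mean ± SD of 3 pools as a bar. Gfi1 over Irf8 lay between 0.0930 and 0.109 in RUX pools, above the 0.0479 to 0.0821 of untreated pools, and the other 4 ratios overlapped.

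The label of the sorted cells was checked against marker genes. Kit, Cd34 and Ptprc, the leukocyte antigen CD45, were expressed in all pools, at 295 to 416, 404 to 478 and 106 to 123 CPM in RUX pools and 196 to 471, 362 to 529 and 96.1 to 187 CPM in untreated pools. The macrophage genes C1qa, C1qb and C1qc stood at 0.278 CPM or less in every pool. Summed CPM of 12 monocyte and macrophage markers was 624 to 1033 in RUX and 735 to 1492 in untreated pools, and untreated pool 3 was again the highest. The sum of 13 erythroid markers was 5512 to 8213 CPM in RUX and 5905 to 6896 CPM in untreated pools, with the 3 hemoglobin genes of the list counted at 0 in every pool. Stem cell markers (9 genes) summed to 301 to 319 CPM in RUX and 207 to 300 CPM in untreated pools, lowest in untreated pool 3, and megakaryocyte markers (7 genes) to 195 to 213 CPM in RUX and 164 to 180 CPM in untreated pools. Basophil and mast cell markers (7 genes) summed to 197 to 330 CPM in RUX and 193 to 299 CPM in untreated pools. For 11 markers of B cells and lymphoid progenitors the sums were 852 to 1112 CPM in RUX and 1017 to 1166 CPM in untreated pools. For 7 markers of T and NK cells they were 230.5 to 425 CPM in RUX and 215 to 377 CPM in untreated pools. Most of the T and NK sum was Nkg7, at 212 to 403 CPM in RUX and 187 to 346 CPM in untreated pools. The T cell genes Cd3e, Cd3d and Cd3g stood at 2.585 CPM or less in every pool. Over these lists 0 genes passed the adjusted threshold in edgeR. At an unadjusted p under 0.05, the genes that were higher included the stem cell marker Procr and the megakaryocyte marker Tubb1 (0.85% of tested genes were higher), and the macrophage marker Mrc1 and the T cell kinase gene Lck were lower. These genes were chosen after their values were seen.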

How the data were processed

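RNA of sorted Lin-CD117+ cells was made into libraries with the SMART-Seq mRNA LP kit, per the labels' protocols. STAR, of a version that the sources used here do not give, aligned the reads to mm10, per the submitters' processing notes. The authors deposited unnormalized counts of read pairs over exons, made by featureCounts 2.0.3 with UCSC mm10 genes and no strand option, per the file headers. The exon length deposited with them, in bases, was used for RPKM.

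Columns were matched to pools by library name. edgeR 4.0.16 in R 4.3.3 kept 13411 genes (filterByExpr), scaled them by TMM (factors 0.938 to 1.03) and tested RUX against untreated with the two-sided quasi-likelihood test, adjusted over those genes at 0.05. This procedure was tested on simulated counts, drawn for each gene independently with known fold changes placed in some genes. Those counts held no shift shared by many genes of a pool, so that test cannot show how the procedure handles such shifts. Every log2 fold change is RUX over untreated. Whether pools of a group share mice is not stated, so p-values measure only the spread between these pools. No pair of pools was alike within sampling noise (chi-square per degree of freedom at least 38.3). The 95% intervals of folds come from the same fit.

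Settings changed in turn were the scaling (DESeq2 size factors, upper quartile), the low-count filter (none, or 1 CPM in 3 pools), robust fitting, the tool (DESeq2 1.42.0, or voom of limma 3.58.1, plain or weighted by sample quality), a threshold of 0.1, the pseudocount of ratios (2 in place of 0.5 counts), the minimum for likeness (1 in place of 5 CPM) and the pools used (each left out, and untreated pool 3 with RUX pool 4). The 8 members and the 9 pathway and 9 marker lists were chosen with earlier results of these data known. Up to 3 genes with the smallest unadjusted p are named per pathway list, with the 2 genes nearest to each regulator and the genes of the ratios. Ly6g was not found by symbol and is not analysed here, and some listed genes are not reported here by name.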

Additional observations from a re-analysis of the deposited data

How the results depend on the processing

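No paired analysis was possible because the pool numbers of the groups, 4 to 6 and 1 to 3, are not shared. The count of called genes was 0 under every setting except no low-count filter (14 genes, 4 higher and 10 lower) and limma-voom with quality weights (1 gene), and none of these was a regulator. With 1 pool left out it stayed at 0. The log2 fold change of Cebpa was −0.06 to 0.44 with 1 pool left out, that of Cebpb 0.08 to 0.77, Cebpd 0.04 to 0.61, Cebpe −0.19 to 1.03, Cebpg 0.16 to 0.30, Spi1 −0.13 to 0.29, Gfi1 −0.08 to 0.63 and Klf4 −0.43 to 0.44. Values below 0 were, without untreated pool 1, −0.10 for Cebpe, −0.09 for Spi1 and −0.11 for Klf4, and without untreated pool 2, −0.055 for Cebpa, −0.19 for Cebpe, −0.13 for Spi1 and −0.076 for Gfi1. Without RUX pool 4 they were −0.03 for Cebpe, −0.11 for Spi1 and −0.43 for Klf4, and without RUX pool 5, −0.03 for Spi1. Klf4 was also at −0.012 with limma-voom and at −0.094 without untreated pool 3 and RUX pool 4. With limma-voom and quality weights Cebpb had an unadjusted p of 0.0315, and 5.80% of tested genes were under 0.05 there. The cause was not tested. The log2 difference of Spi1 over Gata1 ran from −0.26 to 0.27 with 1 pool left out, at 0.24 without untreated pool 3 and 0.27 without RUX pool 6, and was 0.013 without untreated pool 3 and RUX pool 4. The other 4 ratio differences had no negative value under the settings run, but Cebpe over Cebpa was 5.74e-05 without untreated pool 1 (0.20 in all pools) and Gfi1 over Gfi1b 0.027 without untreated pool 2 (0.39 in all pools). The medians of the 6 pathway lists other than granule and phagocyte genes lay between −0.13 and 0.23 and took both signs over the settings. Genes at an unadjusted p under 0.05 numbered 604 with no filter, 778 with quality weights, 666 without untreated pool 2, 545 without untreated pool 3 and 503 without untreated pool 3 and RUX pool 4, against 254. Depth limits Klf4 most, at 117 read pairs in its lowest pool.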
